A study of Mus musculus with 10 samples.

Results

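Cfhr2, Cfi, Cfb, C3, Cd55 and Cd59a are 6 genes of the complement system, and their UMIs (molecular barcodes that mark each captured transcript once) were followed through mouse intestinal organoids and colonic crypts. The 6 genes were chosen by name, with earlier results of these data known. They come from a list of 57 complement genes, of which 55 could be matched by symbol among 31053 genes in the library matrices. Cfhr2 was chosen because, of these 6 genes, it fell the most in Hyper-organoids, so its levels are given as a description with no test. The 3 ENR-organoid libraries came from cultures in EGF, Noggin and R-Spondin 1, at passage 2, 7 and 3. The 3 Hyper-organoid libraries came from a medium of LDN193189, GSK-3 Inhibitor XV, pexmetinib, VPA (valproic acid, which inhibits histone deacetylases), EPZ6438 (which inhibits EZH2, a histone methyltransferase), EGF, R-Spondin 1 and FGF2, at passage 1, 6 and 3. The 2 -VE-organoid libraries were at passage 1 and 6 in that medium with VPA and EPZ6438 left out. Replicates 1, 2 and 3 of each group are the libraries whose names begin with 2, 6 and C, called a name series here. In series 2 and 6 the Hyper- and -VE-organoids had been switched from ENR-organoids, and series C had been started from primary crypts and holds no -VE-organoids. The colonic crypts were 1 library from normal mice and 1 from mice given dextran sulfate sodium (DSS), which injures the colonic lining. The labels give no strain, age, sex or number of animals, nor whether the series are separate cultures or one line at different passages. The p-values therefore measure the spread between these libraries, which may be partly technical.

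Complement is a set of secreted and membrane proteins that tag surfaces for clearance and can lyse cells. C3 is its central protein, and factor B (Cfb) joins the active fragment of C3 to form the enzyme that cleaves more C3, the loop called the alternative pathway. Factor I (Cfi) cuts that fragment apart with the help of cofactors, CD55 speeds the decay of the C3-cleaving enzymes on the cell's own membrane, and CD59 (Cd59a) blocks the final pore. Cfhr2 encodes a secreted protein of a family of complement regulators. Most circulating complement proteins are made in the liver, and epithelia make some of them locally.

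The kept cells had at least 501 genes and at most 20% mitochondrial UMIs, which does not follow the gene and mitochondrial limits in the study's methods. Each organoid library held between 1983 and 4293 cells kept by the authors and between 89124015 and 170019527 UMIs in them, against 19906845 and 32397122 UMIs in the normal and DSS colon. In 5 of 8 organoid libraries the summed stem markers Lgr5, Ascl2, Smoc2 and Olfm4 were highest in the authors' stem class, and in the 3 Hyper-organoid libraries they were slightly higher in the transit amplifying class. Goblet and enteroendocrine markers were highest in their own class in 8 of 8 libraries, enterocyte markers in 7 of 7 and Paneth markers in 5 of 5 with at least 20 such cells. Markers of leukocytes summed to between 0.422 and 0.720 CPM (counts-per-million, a gene's UMIs scaled to the total of the kept cells' UMIs) in the organoid libraries, against 185 in normal and 1216 in DSS colon. The 4 stromal markers (Col1a1, Col1a2, Col3a1 and Dcn) summed to 22.2 and 57.04 CPM in normal and DSS colon, and to 0.0337 to 0.0720 in ENR-, 0.0647 to 0.0903 in -VE- and 0.432 to 0.563 in Hyper-organoids. Of the kept cells, 159 carried a barcode sequence found in more than 1 library.

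Cfhr2 lies on the minus strand of chromosome 1 (mm10, chr1:139804167-139858702). Gm4788, a related gene, lies at chr1:139697623-139781243 on the same strand. The window from 250 bases before to 50 bases after the transcription start is shown for both, because the genes are related and their levels moved together in the organoids. The other 5 genes lie at chr3:129835884-129875332 (Cfi, plus strand), chr17:34856374-34862518 (Cfb, minus), chr17:57203970-57228136 (C3, minus), chr1:130439027-130462744 (Cd55, minus) and chr2:104095801-104115354 (Cd59a, plus). Sequences are from RefSeq (GRCm38.p6), 4 of the 6 genes were matched in that table, and Cfi and Cfb were not. Capitals mark the match to CAAAGTNCA, read here on the opposite strand, which is the binding motif of HNF4, a transcription factor of liver and intestinal epithelium. The windows are chr1:139858650-139858949 for Cfhr2 and chr1:139781190-139781489 for Gm4788, both on the minus strand.
Cfhr2: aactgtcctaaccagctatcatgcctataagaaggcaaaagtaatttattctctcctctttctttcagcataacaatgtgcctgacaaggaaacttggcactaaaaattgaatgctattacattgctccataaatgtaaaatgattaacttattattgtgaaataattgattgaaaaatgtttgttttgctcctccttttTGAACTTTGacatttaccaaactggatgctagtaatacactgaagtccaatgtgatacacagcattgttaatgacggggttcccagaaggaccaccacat
Gm4788: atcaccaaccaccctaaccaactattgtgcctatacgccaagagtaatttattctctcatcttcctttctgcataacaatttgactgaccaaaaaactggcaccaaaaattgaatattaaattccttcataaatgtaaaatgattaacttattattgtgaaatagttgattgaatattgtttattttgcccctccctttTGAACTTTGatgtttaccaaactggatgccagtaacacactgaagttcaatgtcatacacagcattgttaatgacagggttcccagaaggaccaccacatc

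The windows were identical at 259 of 300 aligned positions (86.3%). Both held 1 match to the HNF4 letters on either strand, a motif found in 1.41% of 32851 promoter windows of the same length, and 2 matches each to the HNF1 letters GTTAAT, found in 7.10%. In Gm4788 the TCF letters CTTTGAT (3.73% of windows) overlap the HNF4 match, and Cfhr2 held none. The CDX2 motif, found in 10.9% of windows, had 1 match in Cfhr2 and none in Gm4788. Cd55 also held 1 match to the HNF1 letters. C3, Cd55 and Cd59a held no match to the HNF4 letters in their windows, nor did any of these 5 genes to the GATA factor letters AGATAA or the NF-kB motif. The motifs were searched on both strands and were chosen after the sequences had been read, so the matches are a description of letters in these windows.

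Cfhr2 was high in ENR-organoids, lower in -VE-organoids and almost gone in Hyper-organoids. The ENR-organoid libraries held 25.5, 46.4 and 41.5 CPM, the -VE-organoid libraries 7.23 and 3.26, and the Hyper-organoid libraries 0.0505, 0.0844 and 0.0111. The groups did not overlap, and their means were 37.8 ± 10.97 (SD, n = 3), 5.25 ± 2.81 (SD, n = 2) and 0.0487 ± 0.0367 (SD, n = 3). The Hyper mean was 777 times below ENR and 108 times below -VE, and the -VE mean was 7.203 times below ENR. In raw counts the Hyper-organoid libraries had 7, 12 and 1 Cfhr2 UMIs among 138505172, 142162029 and 90265268, so the Hyper level rests on few counts. The fitted log2 fold changes were -9.57 for Hyper against ENR, -6.72 for Hyper against -VE and -2.85 for -VE against ENR. With each library left out in turn they ran from -10.17 (without Hyper replicate 2) to -9.24 (without Hyper replicate 3) for Hyper against ENR. For Hyper against -VE they ran from -7.32 (without Hyper replicate 2) to -6.02 (without -VE replicate 1), and for -VE against ENR from -3.54 (without -VE replicate 1) to -2.39 (without -VE replicate 2).

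**Figure D1:**
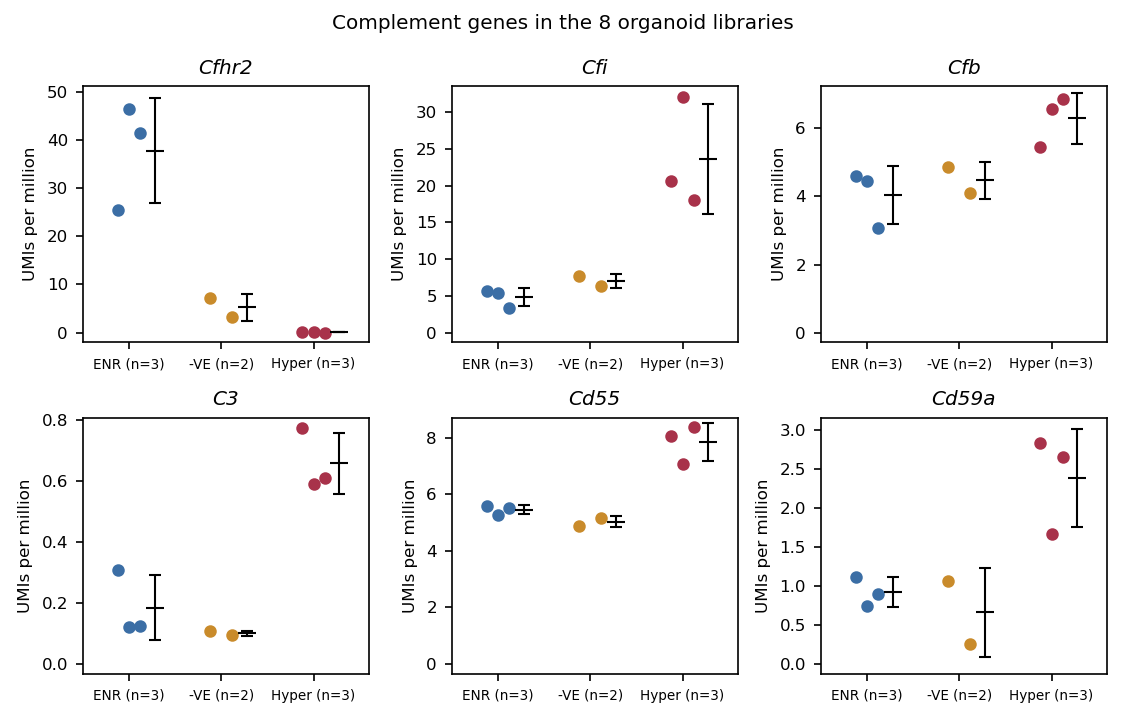
CPM in each organoid library (points, n = 3 ENR, 2 -VE and 3 Hyper), with the group mean and SD beside them (black bars), 1 panel per gene with its own linear axis. Cfhr2 falls from a mean of 37.8 in ENR to 0.0487 in Hyper, and Cfi goes from 4.82 to 23.6.

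A library sum cannot tell fewer cells of a type from less RNA per cell, so the levels were also taken within the authors' cell classes. Cfhr2 is itself one of the 4 markers by which the study named the enterocyte progenitors, so its level in that class and the size of the class are not independent of the label. In ENR-organoids Cfhr2 stood at 138 ± 23.3 CPM of the class in enterocytes and 59.0 ± 16.8 in enterocyte progenitors (SD, n = 3). Transit amplifying cells followed at 12.4 ± 3.35, then goblet cells at 7.82 ± 2.49, enteroendocrine cells at 7.56 ± 5.26, stem cells at 6.27 ± 0.302 and Paneth cells at 2.12 ± 0.640. The ranges of transit amplifying, goblet and enteroendocrine cells overlapped, as did those of goblet, enteroendocrine and stem cells, and those of enteroendocrine and Paneth cells. Enterocytes and their progenitors made up 32.0%, 37.5% and 46.9% of the cells of the 3 ENR-organoid libraries and held 79.5%, 83.2% and 85.3% of the Cfhr2 UMIs. The class labels were made from the same cells' expression, so these differences between classes carry no test.

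Single cells were also counted. Thinned to 10000 UMIs a cell, 58.6%, 69.1% and 63.6% of the ENR enterocytes held a Cfhr2 UMI. The exact binomial intervals (Clopper-Pearson, 95%, counting error only) ran from 51.2% to 65.8%, from 63.8% to 74.1% and from 57.5% to 69.3%. Among ENR Paneth cells, which serve here as the class that lacked the gene most, 1 of 25, 0 of 33 and 0 of 33 cells held one, and the exact upper bound for 0 of 33 is 10.6%. Without thinning the enterocyte shares were 73.4%, 90.6% and 81.5%, at medians between 32330.5 and 39846.5 UMIs a cell. The unthinned Paneth shares were 3.13%, 5.00% and 3.70%, at medians between 12989 and 22273 UMIs. The ENR stem cells reached 5.06%, 5.71% and 4.39% after thinning. With so few Paneth cells these shares could not be set against a measured background.

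Levels outside the absorptive lineage were also set against other enterocyte transcripts, as a share of the enterocyte level. No background of released RNA was measured. The Cfhr2 level of ENR stem cells was between 4.11% and 5.26% of the enterocyte level. For Fabp1, which carries fatty acids, it was between 0.270% and 0.408%, for Sis (sucrase-isomaltase) between 0.525% and 0.583%, and for Apoa1, an apolipoprotein, between 0.379% and 0.667%. In goblet cells the Cfhr2 share (3.52% to 8.02%) overlapped that of Apoa1 (2.72% to 4.38%), and in enteroendocrine cells it (1.37% to 8.04%) was below that of Sis (23.6% to 27.0%). In Paneth cells the share was between 1.30% and 1.96% for Cfhr2 and between 0.271% and 0.744% for Fabp1, but it overlapped that of Apoa1 (1.16% to 1.67%) and Sis (0% to 1.51%).

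In -VE-organoids Cfhr2 was again highest in enterocytes and their progenitors, at lower levels. Enterocytes held 63.4 and 34.8 CPM and enterocyte progenitors 29.9 and 12.1, both below the lowest ENR library of that class. Stem cells held 2.32 and 0.959, goblet cells 0.441 and 0.639, and no Cfhr2 UMI was found in Paneth or enteroendocrine cells. The share of enterocytes with a Cfhr2 UMI after thinning was 35.2% and 20.1%. Enterocytes and progenitors were 10.6% and 9.97% of the cells and held 63.5% and 63.2% of the Cfhr2 UMIs.

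In Hyper-organoids few cells carried the enterocyte or enterocyte progenitor label and these held little Cfhr2, which are not independent observations, since Cfhr2 is a marker of the progenitor label. The 3 libraries had 3, 3 and 2 enterocyte progenitors, with 0 Cfhr2 UMIs, and 7, 58 and 21 enterocytes, with 2, 9 and 1. In the 2 libraries with at least 20 enterocytes the level was 3.69 and 1.03 CPM of the class, below both -VE-organoid libraries. Stem cells held 0.0603, 0.0385 and 0 CPM, and goblet and enteroendocrine cells held none. Over all classes 4, 8 and 1 cells carried a Cfhr2 UMI, against 695, 1208 and 1051 in ENR- and 309 and 256 in -VE-organoids.

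**Figure D2:**
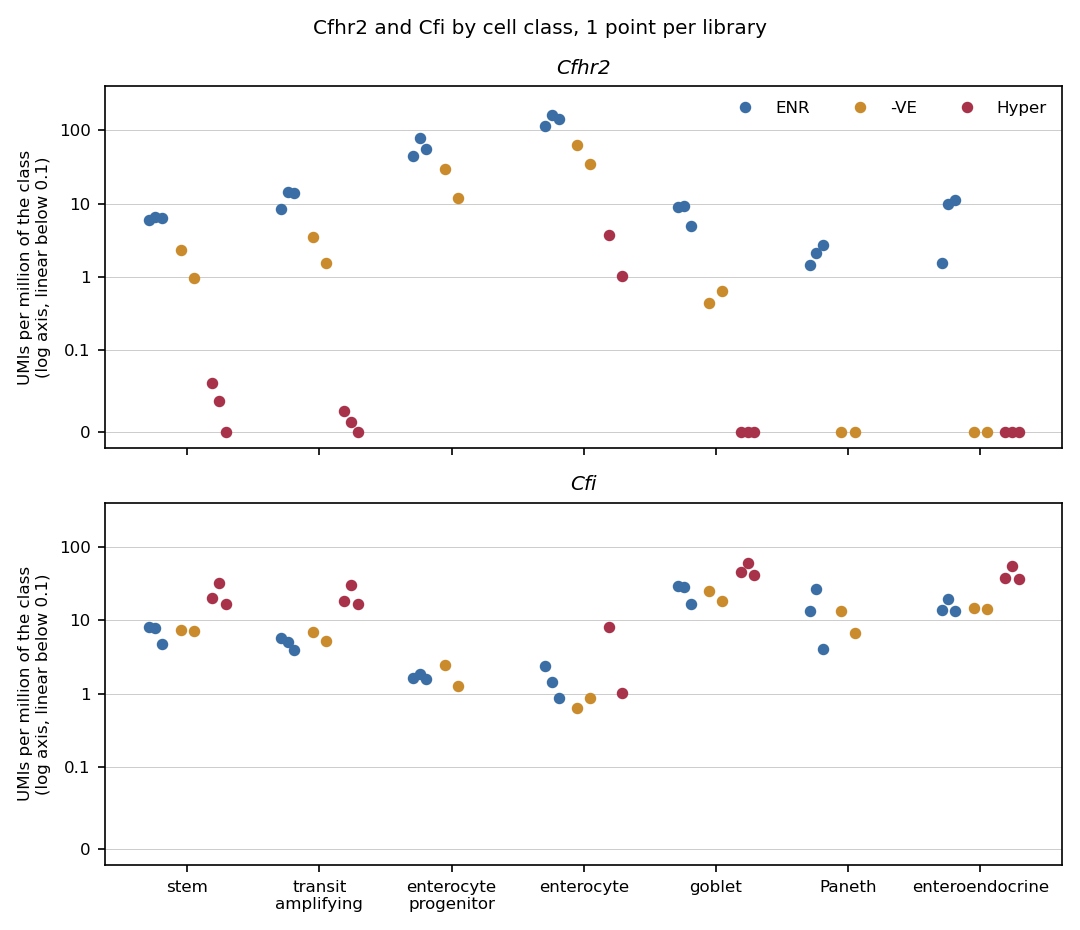
Cfhr2 (top) and Cfi (bottom) in CPM of each cell class, 1 point per library with at least 20 cells of the class, on a log axis that is linear below 0.1. Cfhr2 peaks in ENR enterocytes, at 113 to 160, and in Hyper is at 3.69 and 1.03 in enterocytes and under 0.1 in the other classes, while Cfi is lowest in the absorptive classes and highest in goblet and enteroendocrine cells.

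How much of the fall went with the class shares was computed by pairing the class levels of one group with the class shares (of UMIs) of another. With its own shares ENR gave 38.5 CPM, and ENR class levels at the Hyper shares gave 11.1, against the 0.0539 of Hyper itself. Hyper class levels at the ENR shares gave 0.312. For -VE the class levels at the ENR shares gave 11.96 against its own 4.95. With the ENR shares held in all groups the log2 difference was -6.95 for Hyper against ENR, -5.26 for Hyper against -VE and -1.69 for -VE against ENR, so each difference was smaller than over all cells and kept its direction. The Hyper enterocyte progenitor level in this calculation comes from 8 cells. Since Cfhr2 helped to name that class, its share and level are partly set by the label, and the split between shares and levels is a description of the labelled classes.

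**Figure D3:**
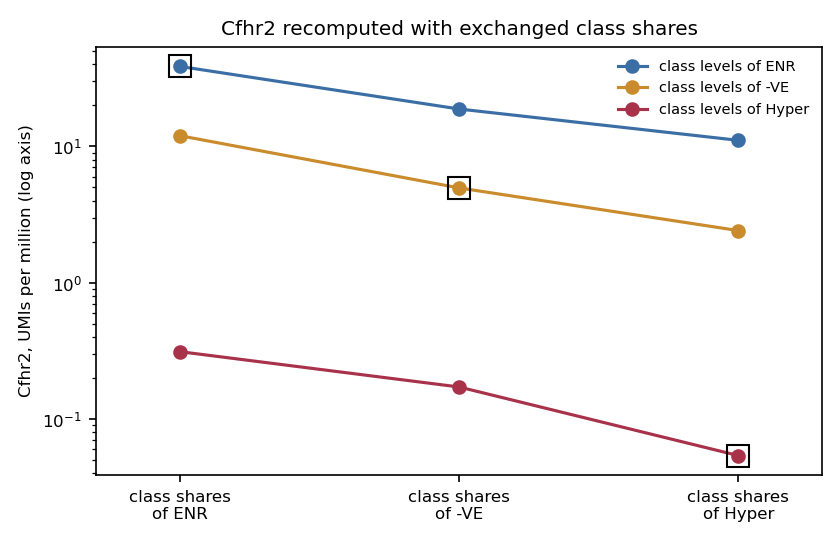
Cfhr2 in CPM (log axis) recomputed with the class levels of one group (line colour) at the class shares of another (horizontal axis), with squares where both come from the same group. The lines stay apart at every set of shares: ENR levels give 38.5 at the ENR shares and 11.1 at the Hyper shares, and Hyper levels 0.312 and 0.0539.

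Gm4788 moved as Cfhr2 did at a lower level. The ENR-organoid libraries held 1.78, 4.43 and 2.89 CPM, the -VE-organoid libraries 0.410 and 0.153, and the 3 Hyper-organoid libraries 0 UMIs. Against the floor of 3 UMIs over the Hyper group, the ENR mean was at least 375-fold higher. Per 100 Cfhr2 UMIs there were 6.99, 9.55 and 6.97 Gm4788 UMIs in ENR- and 5.68 and 4.68 in -VE-organoids. The fall in -VE against ENR was called (log2 fold change -3.45, SE 0.60, adjusted p = 0.0269), and with the name series as a block its adjusted p was 0.0651. The log2 fold change was -4.31 without -VE replicate 1 and -2.88 without -VE replicate 2, the extremes over the libraries left out. The call was lost without -VE replicate 1, -VE replicate 2, ENR replicate 2 or ENR replicate 3, with adjusted p between 0.0157 and 0.144 over the 8 libraries left out in turn. Of the 30-base words in the last 500 bases of the Cfhr2 transcripts, 9.45% also occur in Gm4788, so reads from those stretches could not be given to 1 gene, and how many of the Gm4788 UMIs this touches is uncertain.

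Over 50 library and class sums of the organoids with at least 20 cells, Gm4788 had the highest correlation with Cfhr2 (Pearson r = 0.897 of log2 values with a pseudocount of 1 UMI CPM, among 11113 genes). Ces1f, a carboxylesterase, followed at 0.890, Treh, the brush-border trehalase, at 0.882, Maoa, a monoamine oxidase, at 0.882 and Slc4a5 at 0.871. With at least 50 cells a unit Gm4788 was no longer among the first 5, and Slc28a3 led at 0.916. Among the other 5 genes Cfi ran most opposite to Cfhr2 (r = -0.754), and Cd55 and Cd59a were most like each other (r = 0.702). The genes most like Cfi were Slc27a1, Spire1 and Naglu (r = 0.899, 0.891 and 0.884). For Cd55 they were Cdkn1a, Stxbp2 and Ifi27 (0.908, 0.893 and 0.883), and for Cd59a Papss1, Ncald and Phf21a (0.923, 0.918 and 0.915). Cfb had its nearest genes at a lower r, with Asl, H2-K1 and Neu1 at 0.759, 0.707 and 0.689. C3 had Mapre3, Etnk2 and Nos3 at 0.828, 0.819 and 0.802. C3 itself was at no more than 3.69 CPM in any of these units, so its correlations rest on low counts. The nearest genes depended on the settings: with a pseudocount of 0.1 CPM none of the 3 named for C3 and 1 of 3 each for Cfi and Cd59a stayed among the first 3. With at least 50 cells a unit none of the 3 stayed for Cd55 and 1 of 3 for Cd59a. These points share libraries, depth and class labels, and the values are descriptions across units, not tests.

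Cfi, the protease that inactivates C3b, was higher in Hyper-organoids and followed a pattern opposite to Cfhr2 across classes. The ENR-organoid libraries held 5.72, 5.35 and 3.40 CPM, the -VE-organoid libraries 7.69 and 6.39, and the Hyper-organoid libraries 20.6, 32.1 and 18.1. All 3 groups were separate. Cfi rose in Hyper against -VE (log2 fold change 1.61, SE 0.28, adjusted p = 0.00239), and the call was kept under the alternatives run. The -VE and ENR libraries were closer (log2 fold change 0.56, SE 0.27, adjusted p = 0.258). Against ENR, Hyper was 2.17 higher on the log2 scale, given with no test because the genes were chosen on that contrast. The contrast with -VE uses the same Hyper libraries, so its p-value is not independent of that choice.

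Of the 5 genes tested in Hyper against -VE, all 5 had a positive log2 fold change and 3 were called: Cfi, C3 and Cd59a. Over all 16037 genes tested 18.6% were called in that contrast and 16.1% were called higher, and the median log2 fold change was 0.01. The 5 genes were picked with those results known, so their p-values in that contrast are not independent support for the rises. None of the 5 was called in -VE against ENR, where 2.55% of all genes were. At an unadjusted p under 0.05 the count was also 0 of 5, and DESeq2 called none there. The share of all genes by either measure is not given here, so these counts are not read as results.

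In ENR-organoids Cfi was highest in goblet cells, at 24.9 ± 6.91 CPM, and next in enteroendocrine cells at 15.7 ± 3.49 and Paneth cells at 14.7 ± 11.4, with overlapping ranges (SD, n = 3). It was lowest in enterocyte progenitors at 1.68 ± 0.138 and enterocytes at 1.56 ± 0.758, again with overlapping ranges. In Hyper-organoids goblet cells held 49.2 ± 10.4, enteroendocrine cells 42.9 ± 9.89, stem cells 23.1 ± 8.16 and transit amplifying cells 21.6 ± 7.22 (SD, n = 3). The Hyper level was above both other groups in each of these 4 classes. The share of cells with a Cfi UMI after thinning was 5.89%, 5.30% and 3.25% in ENR-, 7.52% and 6.23% in -VE- and 17.1%, 25.1% and 16.0% in Hyper-organoids. Without thinning these shares were 18.04%, 17.8% and 10.7%, then 25.5% and 19.4%, then 48.9%, 56.97% and 44.9%. With ENR class shares held in all groups the log2 difference for -VE against ENR was 0.04, and for Hyper against -VE it was 1.73. The Hyper enterocyte progenitor level used there comes from 8 cells.

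C3 was rare in every organoid library and rose in Hyper against -VE. The ENR-organoid libraries had 30, 15 and 11 UMIs (0.309, 0.122 and 0.123 CPM), the -VE-organoid libraries 13 and 16 (0.107 and 0.0941) and the Hyper-organoid libraries 107, 84 and 55 (0.773, 0.591 and 0.609). The Hyper-organoid libraries lay above all others. The log2 fold change against -VE was 2.57 (SE 0.44, adjusted p = 0.00222), and each library left out in turn kept the call. Against ENR, Hyper was 1.72 higher on the log2 scale over all kept cells and 2.62 higher with cells thinned to 10000 UMIs. The summed stromal markers moved with it, at no more than 0.563 CPM, with Col1a1 most of it, while Col1a2 and Col3a1 had between 0 and 3 UMIs in every organoid library. Their part in the C3 difference was not tested.

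Cfb, the partner of C3 in the alternative pathway, was 1.56 times higher in mean in Hyper than in ENR and 1.41 times higher than in -VE. The libraries held 4.60, 4.45 and 3.07 CPM in ENR, 4.86 and 4.09 in -VE and 5.45, 6.58 and 6.87 in Hyper. The Hyper values lay above the others, but the difference from -VE did not pass (log2 fold change 0.36, SE 0.18, adjusted p = 0.144), nor did that of -VE from ENR (0.16, SE 0.18, adjusted p = 0.646). Across ENR classes its means ran from 3.0996 in Paneth cells to 6.83 in enterocytes, with overlapping ranges between neighbours in that order.

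Cd55 and Cd59a, the membrane regulators among the 6 genes, were both higher in Hyper- than in -VE-organoids. Cd55 held 5.595, 5.28 and 5.51 CPM in ENR, 4.88 and 5.16 in -VE and 8.07, 7.08 and 8.39 in Hyper. The difference of Hyper from -VE had an adjusted p of 0.00544 but was under 2-fold (log2 fold change 0.51, SE 0.11), so it was not called. With all deposited barcodes in place of the kept cells, Hyper was no longer above ENR in Cd55 (log2 -0.10 against 0.39 in the kept cells). In ENR-organoids Cd55 was highest in enteroendocrine cells and enterocytes, at 18.4 ± 2.95 and 14.6 ± 0.885 (SD, n = 3). In Hyper-organoids the means of these classes were 26.6 and 26.4, and revival stem cells, in 1 library, held 33.8. With ENR class shares held, the log2 difference of Hyper was 0.91 against ENR and 0.99 against -VE. These values give enterocyte progenitors the ENR share of 30.4% of UMIs, while their Hyper level comes from 8 cells.

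Cd59a held 1.12, 0.749 and 0.898 CPM in ENR, 1.07 and 0.259 in -VE and 2.83, 1.67 and 2.66 in Hyper. The Hyper-organoid libraries lay above all others, and the 2 -VE-organoid libraries stood far apart. It rose in Hyper against -VE (log2 fold change 1.72, SE 0.54, adjusted p = 0.03003), but the call rests on single libraries. Without -VE replicate 2 the log2 fold change was 1.03 and without -VE replicate 1 it was 3.08. The adjusted p was 0.0837 without -VE replicate 2, 0.0561 without Hyper replicate 1 and 0.0632 without Hyper replicate 3, with 0.00286 and 0.0837 as the lowest and highest over the libraries left out. Enteroendocrine cells had the highest level in each group, at 12.1 ± 1.10 in ENR, 9.94 ± 4.96 in -VE and 13.8 ± 5.05 in Hyper (SD, n = 3, 2 and 3).

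Within the stem class alone Cfi, Cd59a and C3 were called in Hyper against -VE, where 16.5% of 13920 genes were (14.7% higher). The 5 genes were picked with the Hyper results known, and these cells are part of the same libraries. The p-values within this class are therefore not independent support. The log2 fold changes were 1.58 for Cfi (SE 0.27, adjusted p = 0.00143) and 2.19 for Cd59a (SE 0.56, adjusted p = 0.0109). C3 had 43, 32 and 29 UMIs in the Hyper stem class, 1 and 2 in -VE and 0, 3 and 1 in ENR, so it passed the filter through Hyper and its call is not read as a result. Without -VE replicate 1 the Cd59a value was 3.88 and without -VE replicate 2 it was 1.36. Cd55 was at 0.81 (SE 0.17, adjusted p = 0.00430), under 2-fold, and Cfb at 0.27 (SE 0.16, adjusted p = 0.186). None of the 5 was called in the stem class of -VE against ENR, where 0.503% of all genes were. At an unadjusted p under 0.05 there was 1, Cd59a, and the share of all genes at that threshold is not given here. Whether the effect of Hyper against -VE differed between stem and goblet cells was tested as an interaction, in which 1.65% of 12911 genes were called. Of the 5 genes C3 did not pass the filter and none of the other 4 was called, with log2 differences of differences (stem minus goblet) of 0.65 for Cd55 (adjusted p = 0.141), 1.16 for Cd59a (adjusted p = 0.161), 0.41 for Cfi (adjusted p = 0.185) and -0.40 for Cfb (adjusted p = 0.417).

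Of the other 51 complement genes on the list 22 passed the filter on low counts. In Hyper against ENR 6 were called higher and 4 lower, where 22.9% of all genes were called (18.2% higher and 4.75% lower), with a median log2 fold change of 0.40 beside -0.01 over all genes. In Hyper against -VE 4 were higher and 3 lower, beside 16.1% and 2.51% of all genes, with medians of 0.23 and 0.01. In -VE against ENR 2 were higher and 1 lower, beside 1.35% and 1.2%, with medians of -0.05 and 0.00. The filter keeps genes through the group in which they are high, so these counts describe the genes that passed it.

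Cpn1, the catalytic subunit of carboxypeptidase N, which trims the peptides C3a and C5a, held 6.97, 6.81 and 5.90 CPM in ENR, 15.5 and 22.7 in -VE and 51.1, 43.9 and 44.9 in Hyper, with no overlap. It was called higher in all 3 contrasts, with log2 fold changes of 2.70 for Hyper against ENR (SE 0.14, adjusted p = 3.91e-06), 1.15 for Hyper against -VE (SE 0.15, adjusted p = 0.000646) and 1.55 for -VE against ENR (SE 0.15, adjusted p = 0.00214). Without -VE replicate 1 the middle value was 0.92 and under 2-fold. In ENR-organoids Cpn1 was highest in enteroendocrine cells, at 53.5 ± 8.05 (SD, n = 3), and lowest in enterocytes, at 1.94 ± 0.838, and in Hyper stem cells it reached 47.3 ± 5.47.

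Of the membrane regulators, Cd55b, another CD55 gene, fell as Cd55 did not. It held 2.39, 2.17 and 2.13 CPM in ENR, 2.18 and 1.92 in -VE and 1.16, 0.380 and 0.698 in Hyper (log2 fold change against -VE -1.60, SE 0.37, adjusted p = 0.00864). Of the 30-base words at the Cd55 transcript ends 14.8% also occur in Cd55b, so part of the reads cannot be told apart. Cr1l (Crry), a membrane regulator of rodents, was the most abundant of the group. It held between 45.3 and 48.0 in ENR-, 46.4 and 46.9 in -VE- and between 39.2 and 44.7 in Hyper-organoids. The log2 fold change of Hyper was -0.28 against ENR (adjusted p = 0.00378) and -0.30 against -VE (adjusted p = 0.00720). Both were under 2-fold, so Cr1l was not called. Clu, a secreted regulator of the terminal pathway and a marker of revival stem cells, was called higher in Hyper against ENR (log2 fold change 5.53, SE 0.98, adjusted p = 0.00164). Without ENR replicate 1 it was 6.70 and without ENR replicate 2 it was 5.17, the extremes over the libraries left out, and every one kept the call. Clu was one of the main markers by which the study screened for the Hyper medium. Its call in Hyper against ENR is therefore not independent of how the medium was chosen. The Hyper-organoid libraries stood apart from each other in Clu, at 6.38, 58.1 and 56.5 CPM. The -VE-organoid libraries held 7.73 and 4.69, overlapping Hyper and above the 1.76, 0.407 and 0.281 of ENR, but neither contrast with -VE was called (adjusted p = 0.0537 for Hyper against -VE and 0.110 for -VE against ENR).

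The remaining calls were of genes under 2 CPM. C1s1 of the classical pathway had 20, 44 and 24 UMIs in Hyper, 4 and 3 in -VE and 9, 8 and 5 in ENR. C4b had 48, 22 and 18 in Hyper, 6 and 7 in -VE and 5, 2 and 6 in ENR. The stromal markers were in the same range and also higher in Hyper, and their part was not tested. Itgam, a subunit of complement receptor 3, was lower in Hyper, at 0.390, 0.415 and 0.554 against 0.747 and 0.970 in -VE (log2 fold change -1.07, SE 0.25, adjusted p = 0.00921). It was also called lower in Hyper against ENR (log2 fold change -1.61, SE 0.23, adjusted p = 0.000554). Itgb2, the other subunit of that receptor, had 0 or 1 UMI in every organoid library. Cr2, a receptor for C3 fragments, had 7, 14 and 10 UMIs in Hyper, 0 and 0 in -VE and 3, 0 and 2 in ENR. Mbl2 of the lectin pathway had 7, 24 and 10 UMIs in ENR, 2 and 5 in -VE and 3, 7 and 4 in Hyper. C1s1, C4b, Cr2 and Mbl2 passed the filter mainly through the group where they are high, so their calls are not read as results. Colec11, also of the lectin pathway, had 32, 34 and 18 UMIs in Hyper, 21 and 9 in -VE and 6, 7 and 8 in ENR. It was called higher in Hyper against ENR, but on few counts outside Hyper, so this call is not read as a result either. Fcna, of the same pathway, was higher in Hyper against ENR and in -VE against ENR. With single libraries left out, Colec11 and Fcna in Hyper against ENR also lost their calls, at adjusted p up to 0.0737 and 0.0946. Itgam in Hyper against -VE and Fcna in -VE against ENR lost theirs too. In Hyper against -VE Itgam also lost its call in cells thinned to 10000 UMIs (adjusted p = 0.211). Without the 5% of cells with the most UMIs it was under 2-fold there and lost its call (adjusted p = 0.0123).

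In the colon Cfhr2 and Gm4788 were not detected, and Cfb and Cd55 were higher than in any organoid library. The study grew its organoids from crypts of the proximal small intestine, while the colonic libraries are primary tissue with leukocyte and stromal transcripts. Gut region, culture and cell make-up therefore cannot be told apart in this comparison. No Cfhr2 UMI was found in either library, with exact Poisson upper bounds of 0.185 CPM in normal and 0.114 in DSS colon (counting error only). The level of 3 UMIs would be 0.151 and 0.0926 CPM. Cfi had 1 and 3 UMIs. With 1 library per condition no test was made, and the intervals given are exact Poisson 95% intervals that cover counting error only. Cfb held 22.6 CPM (20.5 to 24.7) in normal and 13.2 (12.02 to 14.6) in DSS colon, and Cd55 held 64.6 (61.1 to 68.2) and 46.9 (44.6 to 49.3). Cd59a had 23 and 22 UMIs, at 1.16 and 0.679 CPM, a ratio of 0.588 (0.312 to 1.10), and 0.482 (0.245 to 0.934) without cluster 18.

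C3 held 20.5 CPM (18.6 to 22.6) in normal and 34.2 (32.2 to 36.3) in DSS colon, but most of it came from a handful of cells. In normal colon 2 cells of the authors' cluster 18 held 392 of the 409 C3 UMIs (95.8%), and in DSS colon 4 cells of that cluster held 650 of 1108 (58.7%). All 6 of these cells also held Dcn, a transcript of fibroblasts, with 372 and 590 Dcn UMIs in all, and none held a UMI of the leukocyte gene Ptprc. In the whole cluster 7 of 11 normal and 21 of 33 DSS cells held Ptprc. The median depth of the cluster was 3592 and 4179 UMIs a cell, against 18374.5 and 16051 in the whole libraries. The 6 cells were singled out after their values were seen.

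Without cluster 18 the C3 level was 0.856 CPM (0.499 to 1.37) in normal and 14.2 (12.9 to 15.6) in DSS colon, a ratio of 16.6 (10.3 to 28.7) in place of 1.66 (1.48 to 1.87). A C3 UMI was then found in 16 of 1121 normal and 240 of 1900 DSS cells, at up to 2 and 11 UMIs a cell. In DSS colon these UMIs lay mostly in cluster 4 (191 UMIs in 230 cells, 38.2 CPM) and cluster 10 (102 UMIs in 103 cells, 37.5 CPM). Clusters 4 and 10 held 11 and 6 normal cells, so they are mostly of the DSS library. In the non-leukocyte clusters with at least 20 cells in both libraries the count was 1 C3 UMI in 380 normal cells and 77 in 736 DSS cells, a ratio of 41.8 (7.29 to 1674). With leukocyte-rich clusters and all cells with a Ptprc UMI left out, the ratio was 15.4 (9.50 to 26.7).

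**Figure D4:**
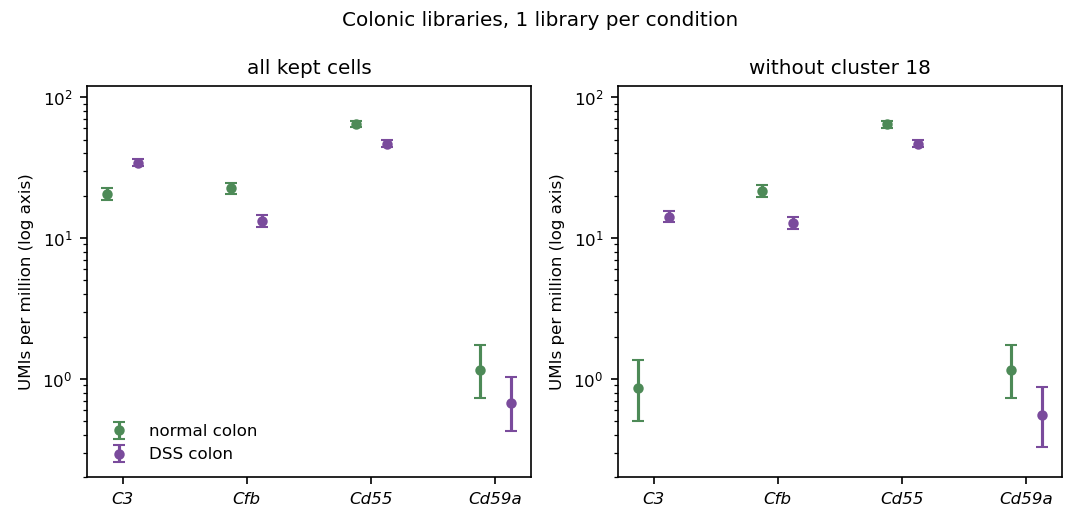
CPM (log axis) of C3, Cfb, Cd55 and Cd59a in normal and DSS colon, 1 library each, with exact Poisson 95% intervals, over all kept cells (left) and without cluster 18 (right). Leaving the cluster out takes C3 in normal colon from 20.5 to 0.856 and leaves Cfb and Cd55 almost as they were.

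Cfb and Cd55 had a different distribution. In normal colon cluster 3 (274 cells, against 1 DSS cell) held 50.6% of the Cfb and 44.0% of the Cd55 UMIs. In the clusters shared by both libraries Cfb was 12.8 CPM in normal and 10.9 in DSS colon, a ratio of 0.849 (0.671 to 1.08), so the difference over all cells (0.587, 0.513 to 0.672) was not seen there beyond counting error. Cd55 stayed lower in DSS colon in those clusters, at 52.3 and 32.3 CPM, a ratio of 0.617 (0.545 to 0.699). Cd59a had 21 UMIs in normal and 7 in DSS colon in those clusters, a ratio of 0.181 (0.0650 to 0.442). Which cells each library gave to a cluster cannot be told apart from the treatment with 1 library per condition.

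Among the other complement genes in the colon, Cr1l was the most abundant, at 61.7 and 71.8 CPM in normal and DSS colon, and Cpn1 held 19.7 and 17.5. C1qa and C1qb, subunits of the classical pathway's recognition protein that macrophages make, were at 0.954 and 1.31 in normal and 21.4 and 25.5 in DSS colon. Cluster 21, with 1 normal and 20 DSS cells, held 94.7% and 99.4% of the C1qa UMIs. Clu was at 7.48 and 54.5, and 59.2% of its DSS UMIs lay in the 108 cells of cluster 9.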

How the data were processed

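The authors aligned droplet-based reads to mm10 and counted them with Cell Ranger (3.0.0 per the submitters' processing notes, another version in the matrix headers), and annotated cells with Seurat 3.1.4. The deposited values are UMI counts per gene and barcode, not normalized, with a table of the 25204 kept cells and their classes. UMIs of kept cells were summed per library and class, and levels are plain CPM. One edgeR 4.0.16 model (R 4.3.3, TMM, filterByExpr, quasi-likelihood F test) held all 8 organoid libraries, and calls needed an adjusted p (Benjamini-Hochberg) below 0.05 with a change of at least 2-fold. All adjusted p-values of single genes are from this test unless DESeq2 1.42.0 is named. The script was tested on simulated data. Doublets were not called, and an alternative left out the 5% of cells with the most UMIs.

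The 6 genes, the lists and the likeness rule were chosen with earlier results of these data known. Cfhr2 in all contrasts and the 6 genes in Hyper against ENR have no test. The p-values of the other 5 genes in Hyper against -VE are not independent of that choice. Other genes named were those called in an organoid contrast or of at least 20 CPM, and the 5 genes most like Cfhr2 and 3 most like each other gene (at least 10 CPM in 1 unit). Cells singled out in cluster 18 and motifs were chosen after values or sequences were seen. Columns of samples that could not be mapped numbered 0. Deviations of ENR and Hyper libraries of 1 name series correlated at r = 0.192, 0.170 and 0.436 over 16037 genes. Between series 2 and 6 the values were 0.129 and 0.0619. Where a library of series C was set against another series they were between -0.292 and -0.179, so mainly series C stood apart. The reported fits left the series out, and a fit with the series as a block was an alternative. Some complement genes are not reported here.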

Additional observations from a re-analysis of the deposited data

How the results depend on the processing

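Fits differed from the reported ones by normalization, filter, test, the name series (names beginning with 2, 6 or C) as a replicate block, cells used, depth and each library left out. Where 1 -VE library was left out, the other was assumed to vary like the other groups. With the name series as a replicate block, the sign of Cfi turned in the stem class of -VE against ENR (-0.13, adjusted p = 0.747). The named call that the block changed was the fall of Gm4788 in -VE against ENR over all cells. Cells thinned to 10000 UMIs gave -0.00928 for Cfi and 0.13 for Cfb in the stem class of -VE against ENR. Over all classes they gave 2.62 for C3 in Hyper against ENR, and 6 other complement genes called in that contrast in place of 10. C3 of the stem class did not pass the filter in thinned cells. All deposited barcodes gave -0.10 for Cd55 in Hyper against ENR and a C3 ratio of 2.01 in the colon. A filter of 10 CPM in 2 libraries left 1 of the 5 genes called in Hyper against -VE, since 4 were not tested, and 2, 1 and 1 other genes in Hyper against ENR, Hyper against -VE and -VE against ENR, where fewer genes are tested. ENR class shares were also held in every group, a setting chosen after the data were seen, with 8 enterocyte progenitors in Hyper. The log2 differences for Cfhr2 were then -6.95, -5.26 and -1.69. For Cd55 in Hyper they were 0.91 against ENR and 0.99 against -VE, and for Cfi 0.0434 in -VE against ENR. Libraries left out in turn gave 2 to 3 of 5 genes called in Hyper against -VE, and 7 to 13, 4 to 8 and 1 to 5 other complement genes in the 3 contrasts, with 4 in Hyper against -VE without -VE replicate 2. In -VE against ENR there was 1 without -VE replicate 1 or 2, ENR replicate 2 or ENR replicate 3, and there were 5 without Hyper replicate 1. They gave log2 values of 1.03 to 3.08 for Cd59a in Hyper against -VE, of -1.83 to 0.22 in -VE against ENR, where the sign turned without -VE replicate 2, and of -0.15 to 0.14 for Cfi in the stem class of -VE against ENR, where it turned without ENR replicate 3. Cd59a in Hyper against -VE lost its call without -VE replicate 2, Hyper replicate 1 or Hyper replicate 3. Where tested, the other calls and signs of the 6 genes were kept.

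In the colon the C3 ratio of DSS to normal was 15.4 without leukocyte-rich clusters, 16.6 without cluster 18, 1.39 in cells thinned to 5000 UMIs and 41.8 in shared clusters. In shared clusters the ratio was 0.543 for Cfi, on 1 UMI in each library, 0.849 for Cfb, 0.617 for Cd55 and 0.181 for Cd59a. Of the 5 genes most like Cfhr2, 4 were still among the top 5 with a pseudocount of 0.1 CPM and 2 with at least 50 cells a unit. Except where shown above, the cause was not tested. Depth limits Cfhr2 in Hyper-organoids, C3 in ENR- and -VE-organoids and Cfi in the colon.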

Other observations

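Among cells with a Cfhr2 UMI, 11.7%, 9.52% and 5.99% also held a Cfi UMI in the 3 ENR-organoid libraries, against 21.02%, 25.1% and 14.5% of the remaining cells, without thinning. In the 2 -VE-organoid libraries the shares were 11.3% and 7.03% against 27.6% and 20.1%. Both genes also differ between classes, and the share within a class was not taken.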
